A study of Mus musculus with 2 samples.

Results

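Adipocyte nuclei of ischemic tibialis anterior muscle were examined in 2 single-nucleus RNA libraries, one labelled AHRfl/fl and one labelled AHRmKO. The barcodes were chosen by 5 limits: at least 2000 UMIs (unique molecular identifiers, each standing for 1 captured RNA molecule), at most 5% of UMIs from mitochondrial genes, at least 3 UMIs of Adipoq, Plin1, Cidec and Plin4 together, at most 1 UMI of Ptprc and Pax7 together, and under 1% of UMIs from the muscle genes Ttn, Neb, Trdn and Dmd together. They numbered 73 in the AHRfl/fl library and 56 in the AHRmKO library, 129 of the 23616 barcodes that passed the UMI and mitochondrial limits. Both libraries came from male mice of 16 to 20 weeks with chronic kidney disease, taken 5 days after femoral artery ligation. The strain given for both combines AHRtm3.1Bra/J, a floxed aryl hydrocarbon receptor allele, and Tg(ACTA1-cre/Esr1*)2Kesr/J, an inducible Cre driven by the skeletal actin promoter. That promoter is known for its use in muscle fibres and not in fat cells, so AHRmKO names a deletion aimed at the fibres around these nuclei. The labels used here do not say whether AHRfl/fl mice carried the Cre, how it was induced, or how many mice entered a library. With 1 library per group, no difference below has a replicate check, and every interval covers counting error only, not the difference between mice or preparations. Intervals of gene ratios also leave out the differences between nuclei.

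White adipocytes store triglyceride in a single large droplet coated by perilipins, build it from fatty acids taken up through lipoprotein lipase and fatty acid transporters, and release it through a chain of lipases under adrenergic and insulin control. The nuclear receptor PPARγ, with C/EBP factors, holds this program in place, and the cells also secrete adiponectin, leptin, resistin and adipsin. In skeletal muscle, adipocytes lie between the fibres and are known to arise from fibroadipogenic progenitors after injury. A nuclear library reads mostly transcripts that have not yet left the nucleus, so its levels need not follow those of cytoplasmic mRNA.

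The 2 libraries held 151788328 and 113737134 UMIs, in the order AHRfl/fl then AHRmKO, which is kept throughout. Nuclei passing the UMI and mitochondrial limits numbered 16986 and 6630, at median depths of 3806 and 3764.5 UMIs and median mitochondrial shares of 0.827% and 2.00%. The libraries shared 30 of these barcodes, of which 1 was an adipocyte nucleus of the AHRmKO library. The adipocyte nuclei held 369528 and 302031 UMIs in all, with medians of 4788 and 3333 UMIs per nucleus. In the AHRfl/fl library they ranged from 2002 to 12047 UMIs, and in the AHRmKO library from 2071 to 32000. The 4 AHRmKO nuclei deeper than any of the AHRfl/fl library held 29.8% of the AHRmKO total, so results that rest on them are given with and without them.

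Adipocyte nuclei made up 0.430% of nuclei in the AHRfl/fl library (exact 95% binomial interval 0.337 to 0.540%) and 0.845% in the AHRmKO library (0.639 to 1.10%). The difference was 0.415 percentage points (Newcombe interval 0.192 to 0.680). At least 3 marker UMIs were present in 139 and 125 nuclei, and the muscle gene limit alone removed 34 and 55 of these, the Ptprc and Pax7 limit alone 20 and 7, and both limits 12 and 7. Exactly 3 marker UMIs were found in 10 and 6 of the chosen nuclei, and just outside the limit 14 and 6 nuclei had 2. A share of nuclei cannot separate more adipocytes from fewer recovered nuclei of other kinds.

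Genes that the selection did not use were those of adipocytes. Pparg, the receptor that drives fat cell differentiation, was at 2571 and 2268 CPM (UMIs of a gene for each 1000000 UMIs summed over the nuclei), against 60.03 and 67.4 in nuclei gated as fibroadipogenic. Acsl1, which activates fatty acids for storage, was at 5569 and 4728 CPM, and Car3, a carbonic anhydrase abundant in fat, at 5412 and 5109 CPM. Lipe, which encodes hormone-sensitive lipase, was at 649.5 and 1202 CPM, against 8.42 and 8.92 in fibroadipogenic nuclei. After every nucleus was thinned to 2000 UMIs, Pparg was found in 93.2% (exact 95% binomial interval 84.7 to 97.7%) and 89.3% (78.1 to 96.0%) of adipocyte nuclei, against 7.0% and 10.5% of fibroadipogenic ones, at unthinned median depths of 3847.5 and 3467 UMIs for the latter. Thinned in the same way, endothelial nuclei had it in 35.6% and 34.5%, and macrophage nuclei in 24.2% and 17.8%. Unthinned, 97.3% and 92.9% of adipocyte nuclei had a Pparg UMI. Of the 4 selecting genes, Plin1 was at 809.1 and 1076 CPM, Plin4 at 419.5 and 708.5, Adipoq at 219.2 and 115.9, and Cidec at 132.6 and 165.5. These 4 values describe the selection and test nothing.

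**Figure D1:**
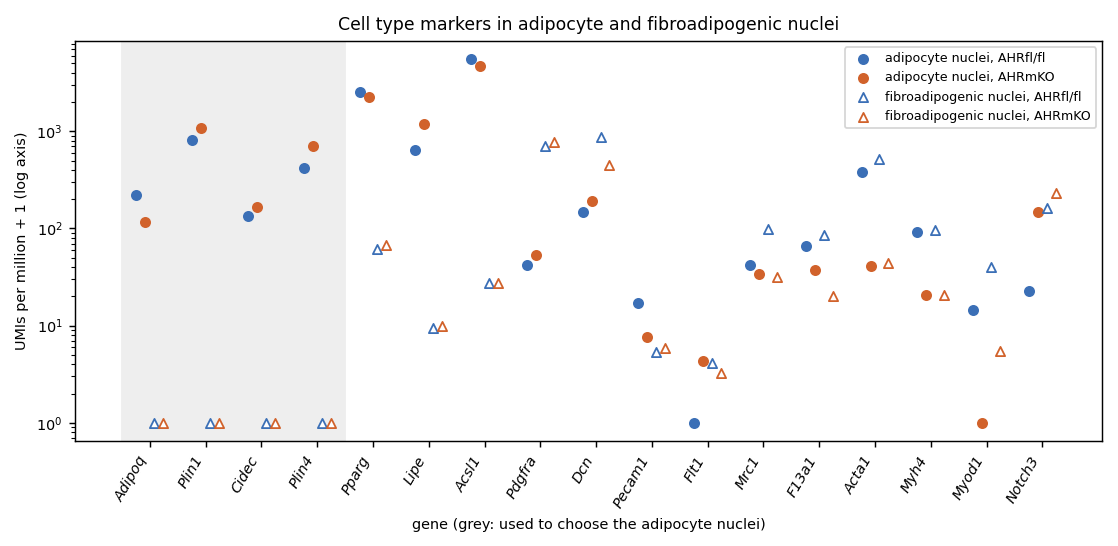
Summed expression of cell type markers, in CPM plus 1 on a log axis, in adipocyte nuclei (filled circles) and fibroadipogenic nuclei (open triangles) of the AHRfl/fl (blue) and AHRmKO (orange) libraries, with the selecting genes on grey. Pparg, Lipe and Acsl1 stand far above the fibroadipogenic nuclei in both libraries, and Acta1, Myh4 and F13a1 are lower in the AHRmKO library in both kinds of nuclei.

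Markers of other cell types were not absent, and most classes summed lower than in the nuclei passing the UMI and mitochondrial limits but not chosen. The 10 fibroadipogenic markers summed to 1448 and 871 CPM, against 10724 and 7526 in fibroadipogenic nuclei, and 9 of the 10 were detected in each library, with Dpp4 at 0. The same markers summed to 1663 and 824 CPM in the nuclei not chosen and to 552 and 87.2 CPM in macrophage nuclei. In barcodes of 200 to under 500 UMIs they summed to 3279 and 798 CPM. The 11 macrophage and monocyte markers summed to 888 and 222 CPM, and the 9 myofibre markers to 1096 and 205 CPM. Both sums were lower in the AHRmKO library, as they were in fibroadipogenic nuclei, where they were 1200 and 216 CPM for macrophage and 1462 and 269 CPM for myofibre markers. Endothelial markers summed to 29.8 and 16.6 CPM, with the defining genes Cdh5, Kdr, Emcn and Vwf at 0 in both libraries. Mural markers summed to 157 and 288 CPM, and 1 AHRmKO nucleus held 48 of the 87 AHRmKO mural UMIs. Of the genes that gated fibroadipogenic nuclei, 3 or more UMIs occurred in 16 and 8 adipocyte nuclei, at most 29 and 36 in a nucleus, and 2 or more of the endothelial gate genes in 0 and 0. None of the 129 was among the barcodes of highest doublet score.

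Pparg and Acsl1 were higher in nuclei that passed the marker limit than in those with no marker UMI, and the steps between were uneven. Among nuclei that met every other limit, Pparg was at 106 and 112 CPM where no marker UMI was seen, 1563 and 645 CPM at 2 marker UMIs, 2155 and 1289 CPM at 3 to 4, 3059 and 1530 CPM at 5 to 9, and 2245 and 2715 CPM at 10 or more. Acsl1, over the same steps, was at 35.6 and 42.9, 889 and 3008, 4031 and 3534, 5197 and 3743, and 6828 and 5310 CPM. For both genes the 14 and 6 nuclei just outside the limit lay between those without a marker UMI and those with 3 to 4. Pdgfra, a fibroadipogenic marker, was at 201 and 0 CPM in them, against 53.2 and 41.6 CPM at 3 to 4 marker UMIs. Deeper nuclei hold more marker UMIs, with median depths of 3695 and 2445 UMIs at 3 to 4 markers and 6687 and 5324 at 10 or more.

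**Figure D2:**
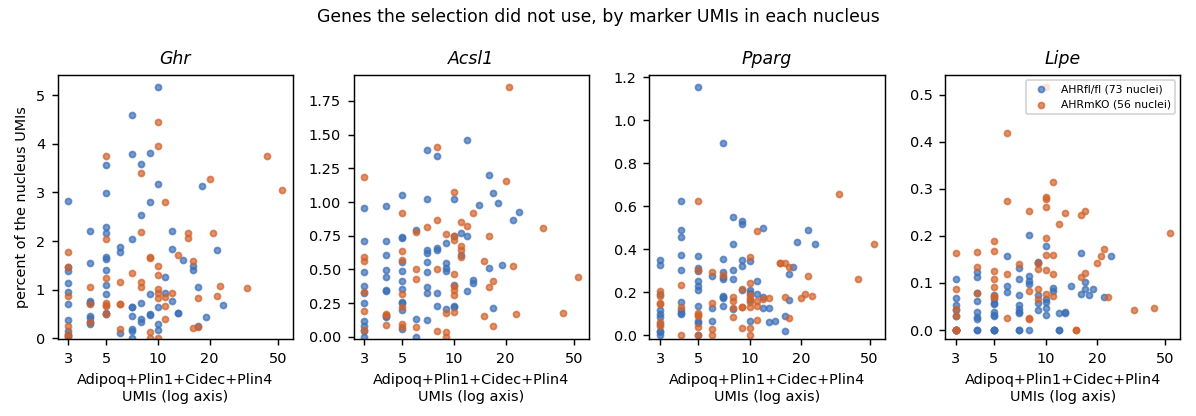
Share of each nucleus's UMIs (percent) from Ghr, Acsl1, Pparg and Lipe against its marker UMIs (log axis), with 1 point per nucleus, 73 AHRfl/fl (blue) and 56 AHRmKO (orange). Ghr reaches 5.16% of a nucleus, and the AHRmKO nuclei of most marker UMIs, 43 and 53, are also among the deepest.

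Single nuclei differed widely. Ghr, the growth hormone receptor, was the most abundant of the listed adipocyte genes, at 13896 and 17194 CPM, and its share of a nucleus ran from 0 through a median of 0.921% to 5.16% in the AHRfl/fl library and from 0 through 1.05% to 4.44% in the AHRmKO library. Acsl1 ran from 0 through 0.489% to 1.46%, and from 0 through 0.484% to 1.85%. Pparg ran from 0 through 0.211% to 1.16%, and from 0 through 0.165% to 0.655%. For these genes the 2 libraries overlapped nearly throughout. Fabp4, a fatty acid carrier, had its highest share, 6.28%, in a single AHRmKO nucleus that held 130 of the 537 AHRmKO UMIs. None of Ghr, Acsl1, Pparg and Fabp4 was called between the libraries, in the main analysis or under any of 25 alternatives.

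Of 5947 genes with at least 20 UMIs over both libraries, 308, or 5.18%, were at least 4-fold higher in adipocyte than in fibroadipogenic nuclei in both libraries. Because selection for adipocyte markers shapes this contrast, the figure is a description. With the selecting genes left out, the 20 genes of highest mean ratio began with Acvr1c, the receptor ALK7 that restrains lipolysis (766 and 665.5 CPM, against 1.65 and 0.446), Car3, and Pnpla3, a lipid droplet acyltransferase and lipase (238 and 278 CPM). They went on with Tshr, the thyrotropin receptor, at 1580 and 1159 CPM, Slc7a10, a serine transporter of fat cells, at 159.7 and 307.9 CPM, Retn, which encodes resistin, at 116 and 189 CPM, Lgals12, a galectin of lipid droplets, at 222 and 434 CPM, and Sctr, the secretin receptor, at 227 and 288 CPM. Also among the 20 were Acsl1, Pck1, Cfd, Mlxipl, Mrap, Gpat3, Gpd1, Slc36a2, Lipe and Fabp4, with Tmem45b and A530016L24Rik. Fabp4, at 2062 and 1778 CPM, was also at 1341 and 718 CPM in endothelial nuclei. Tmem45b came from few nuclei, with 31 and 56 UMIs in 6 and 5 nuclei, 20 and 36 of them in 1. Pck1 was in 8 and 5 nuclei, and 1 AHRmKO nucleus held 39 of the 84 AHRmKO UMIs of Pnpla3. Of the 12 lipolysis genes measured, 11 were in the set of 308, against 0 of 12 circadian, 0 of 9 early response and 0 of 13 respiratory chain genes.

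Several genes that define thermogenic fat gave no UMI, and others were measured. Ucp1, the uncoupling protein of brown fat, Cidea, Dio2, Elovl3 and Zic1 were at 0 UMIs in both libraries, where 3 UMIs over a library's nuclei would be 8.12 and 9.93 CPM. Prdm16, a coregulator of brown fat genes, was at 179 and 92.7 CPM, Ppargc1b at 290 and 364 CPM, and Kcnk3, a potassium channel of thermogenic fat, at 48.7 and 59.6 CPM. Lep, which encodes leptin, had only 7 and 5 UMIs, in 5 and 4 nuclei.

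The C/EBP motif TTGCNNAA, the letters that this family of fat cell regulators is known to bind, was searched on both strands in the 250 bases before each RefSeq gene start (GRCm38.p6) and found in 10.8% of 27025 genes and in 3 of 14 lipid droplet genes, Plin1, Cidec and Cav2. It was in 0 of 14 lipolysis genes. Other motifs were searched too, and the AP-1 site TGANTCA was in 4 of the 14 lipid droplet genes, against 7.82% of all genes. The stretches below are shown for the selecting genes Plin1 and Cidec, for Pparg and for Lep, to set motif matches beside levels, with the matches in capitals. They lie on the gene's strand, before the start, at chr7:79732807-79732983 (minus), chr6:113434935-113434982 (minus), chr6:115421831-115422065 (plus) and chr6:29060146-29060193 (plus).
Plin1: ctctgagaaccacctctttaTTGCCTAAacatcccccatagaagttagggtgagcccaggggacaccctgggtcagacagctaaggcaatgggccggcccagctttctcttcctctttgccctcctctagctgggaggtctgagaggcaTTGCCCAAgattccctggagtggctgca
Cidec: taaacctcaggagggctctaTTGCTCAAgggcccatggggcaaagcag
Pparg: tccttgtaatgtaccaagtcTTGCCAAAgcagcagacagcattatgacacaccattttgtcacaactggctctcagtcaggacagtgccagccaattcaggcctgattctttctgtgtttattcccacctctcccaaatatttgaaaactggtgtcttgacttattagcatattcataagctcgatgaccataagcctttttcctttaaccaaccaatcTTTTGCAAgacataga
Lep: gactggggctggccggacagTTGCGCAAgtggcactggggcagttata
Plin1 and Pparg each held 2 matches, at 187 and 58 bases and at 215 and 16 bases before the start, and the Pparg match nearest the start is the motif read on the other strand. Lep held a match 55 bases before the start and had 7 and 5 UMIs, and none of the 10 genes with a RefSeq promoter among the 20 highest over fibroadipogenic nuclei held the motif. A match is a run of letters, not a bound site.

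Between the libraries, 453 of the 5947 genes (7.62%) were higher in the AHRmKO adipocyte nuclei and 553 (9.3%) were lower. A gene was called when its ratio of CPM plus 0.5 was at least 2-fold and its exact 95% counting interval excluded equality. The median log2 ratio over all tested genes was 0.03. Calls could rest on few nuclei, and 35 of the 453 higher genes had over 50% of their AHRmKO UMIs in 1 nucleus, against 5 of the 553 lower genes in the AHRfl/fl library. Without the 4 deepest AHRmKO nuclei, 519 genes were higher, 325 of them among the 453, and 543 were lower, 406 of them among the 553. The libraries also differed in Gm42418, a locus known to draw ribosomal RNA reads, at 2996 and 22498 CPM in adipocyte nuclei and at 3056 and 18261 in fibroadipogenic nuclei.

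**Figure D3:**
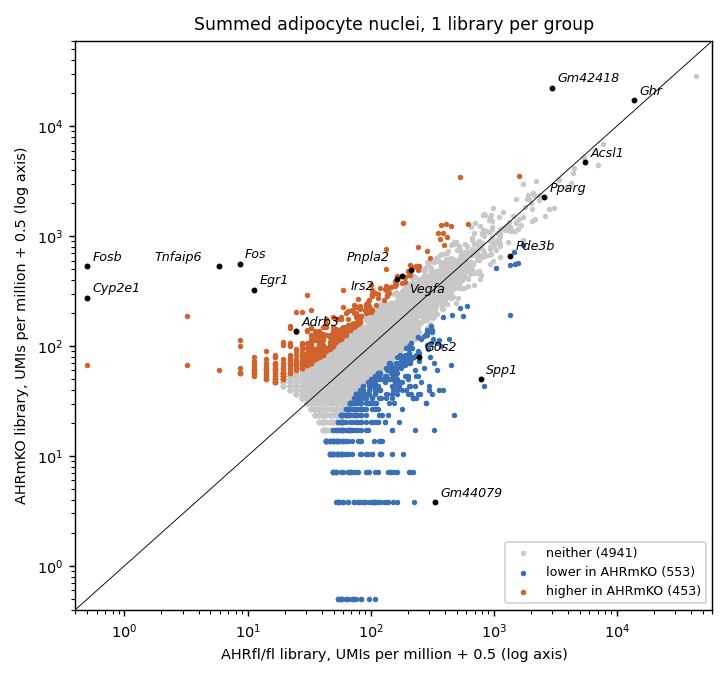
Summed expression of the 5947 tested genes in adipocyte nuclei of the AHRfl/fl library (horizontal) and the AHRmKO library (vertical), in CPM plus 0.5 on log axes, with the line of equal values. The 453 higher genes are orange and the 553 lower ones blue, Pparg, Ghr and Acsl1 lie near the line, and Fos, Fosb and Egr1 stand far above it.

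Adipose triglyceride lipase and the fat cell adrenergic receptor were higher in the AHRmKO library. Of 12 lipolysis genes tested, 3 were higher, against 7.62% of all genes, and 2 lower, against 9.3%, with a median log2 ratio of 0.47 that was -0.11 in nuclei with at most 1 UMI each of the fibroadipogenic and endothelial gate genes. Pnpla2, which encodes adipose triglyceride lipase, was at 213.8 and 486.7 CPM, on 79 UMIs in 44 nuclei and 147 UMIs in 42 nuclei, a log2 ratio of 1.18 (interval 0.78 to 1.60). Adrb3, the β3-adrenergic receptor of fat cells, was at 24.4 and 136 CPM, on 9 and 41 UMIs in 7 and 21 nuclei, a log2 ratio of 2.45 (1.42 to 3.71). Npr1, the natriuretic peptide receptor, had 10 and 21 UMIs and a log2 ratio of 1.35 (0.21 to 2.61). G0s2, the protein inhibitor of adipose triglyceride lipase, went the other way, at 249 and 79.5 CPM on 92 and 24 UMIs in 43 and 13 nuclei, a log2 ratio of -1.64 (-2.36 to -0.99). Pde3b, the phosphodiesterase through which insulin opposes lipolysis, was also lower, at 1361 and 665.5 CPM and a log2 ratio of -1.03 (-1.28 to -0.79). Lipe, at a log2 ratio of 0.89 (0.65 to 1.13), was not called, nor were Mgll (0.07), Abhd5 (0.34) or Acvr1c (-0.20). Pde3b, close to the 2-fold limit, fell short of it under 5 of 25 alternatives, and Pnpla2, Adrb3 and G0s2 were called under all 25. Lipe was called under 4 of 25 alternatives, at 1.09 without the 4 deepest nuclei, 1.20 with each nucleus weighted the same and 1.20 in nuclei with at most 1 UMI each of the fibroadipogenic and endothelial gate genes. Without the 4 deepest nuclei the log2 ratios of Pnpla2, Adrb3, G0s2 and Pde3b were 1.54, 2.78, -1.72 and -1.21. G0s2 was lower in the other gated nuclei too, at log2 ratios of -2.56 in fibroadipogenic and -2.84 in macrophage nuclei, whereas Pnpla2 was at -0.36 and -0.01 there. Hcar2, the niacin receptor that restrains lipolysis, had 0 and 15 UMIs, in 8 AHRmKO nuclei, too few to test.

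**Figure D4:**
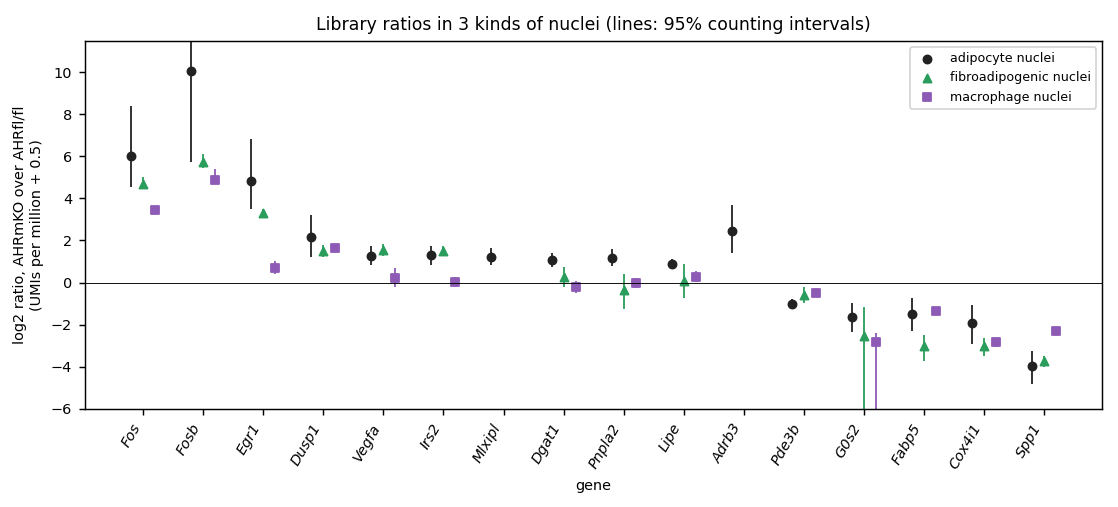
Log2 ratio of the AHRmKO over the AHRfl/fl library for 16 genes in adipocyte (black circles), fibroadipogenic (green triangles) and macrophage nuclei (purple squares), with 95% counting intervals as lines that run off the axis where a count was at or near 0, for genes of at least 20 UMIs in that kind of nucleus. Fos, Fosb, Dusp1 and Spp1 lie on the same side of 0 in every kind shown, while Pnpla2 and Dgat1 lie at 1.18 and 1.06 in adipocyte nuclei and between -0.36 and 0.28 in the other kinds.

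Of 10 triglyceride synthesis genes, 3 were higher, against 7.62% of all genes, and none lower, with a median log2 ratio of 0.40 that was -0.05 under a mitochondrial limit of 2%. Dgat1, which adds the last fatty acid, was at 303 and 632 CPM, with a log2 ratio of 1.06 (0.72 to 1.41), in 54 and 49 nuclei. Gpd1, which makes glycerol phosphate, was at 206 and 444 CPM, with a log2 ratio of 1.11 (0.69 to 1.53). Pck1, the glyceroneogenic carboxykinase, had 20 and 38 UMIs and a log2 ratio of 1.21 (0.40 to 2.08), in only 8 and 5 nuclei. Each of the 3 fell short of 2-fold under some alternative. Dgat1 was at 0.86 under the mitochondrial limit of 2%, Gpd1 at 0.92 with at least 5 marker UMIs, and Pck1 at 0.76 after thinning to 2000 UMIs. Dgat2 (-0.35), Gpat3 (-0.32) and Lpin1 (0.21) were not called.

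Of 11 lipogenesis genes, Acacb and Elovl6 were higher, at log2 ratios of 1.28 and 1.05, and Scd2 was lower at -1.43, where 7.62% and 9.3% of all genes were higher and lower. Acacb was at 0.77, short of 2-fold, under a mitochondrial limit of 2%. Elovl6, a fatty acid elongase, had 20 and 34 UMIs in 13 and 9 nuclei, and its log2 ratio was 0.06 without the 4 deepest nuclei. Scd2, a desaturase, was at -0.93 without them and no longer called. Acaca (-0.61), Scd1 (0.28) and Me1 (-0.01) were not called. Of 9 uptake and activation genes, Fabp5 alone was lower, a share near that of all genes, at 176 and 62.9 CPM and a log2 ratio of -1.48, and it was at -0.97, not called, without the 4 deepest nuclei. Lpl, Cd36 and Slc27a1 had log2 ratios of 0.14, -0.30 and 0.51.

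None of the lipid droplet genes was called in either direction. The list of 11 tested, with a median log2 ratio of 0.22, and -0.20 without the 4 deepest nuclei, holds the selecting genes Plin1, Plin4 and Cidec, and the other 8 had a median of -0.19. Beside the selecting genes, Cav1, the caveolar protein abundant in fat cells, was at 1364 and 1202 CPM, with a log2 ratio of -0.18 (-0.38 to 0.02), and Plin2 had 33 and 36 UMIs. Fitm2, which takes part in droplet formation, had 36 and 15 UMIs and a log2 ratio of -0.96 (-1.95 to -0.07), and it was called under 7 of 25 alternatives, at -1.04 without the 4 deepest nuclei.

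Of 13 transcription factors of the fat cell program, 2 were higher, against 7.62% of all genes, and none lower, with a median log2 ratio of 0.02. Mlxipl, which encodes the carbohydrate response factor ChREBP, was at 222 and 523 CPM, in 46 and 38 nuclei, a log2 ratio of 1.24 (0.84 to 1.64) and 1.60 without the 4 deepest nuclei. Nr1h3, the liver X receptor α, was at 59.5 and 139 CPM, with a log2 ratio of 1.22 (0.45 to 2.04), and it was at 1.21 in fibroadipogenic nuclei. Pparg had a log2 ratio of -0.18 (-0.32 to -0.04), Ebf1 -0.17, Zfp423 0.02 and Nfia -0.67 (-0.77 to -0.57).

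Insulin signalling genes held a pair of opposite values. Irs2, an insulin receptor substrate, was at 165 and 404 CPM, in 36 and 45 nuclei, a log2 ratio of 1.29 (0.84 to 1.76). Irs1, its counterpart, was at 495 and 248 CPM with a log2 ratio of -0.99 (-1.40 to -0.60), just under the 2-fold limit. Over the alternatives Irs1 ran from -1.57 to -0.87. In fibroadipogenic nuclei Irs2 was at 1.48 and Irs1 at -0.45. Of the 17 genes tested, Irs2 was the only one higher and Rps6ka3 (-1.01) the only one lower, both under the 7.62% and 9.3% of all genes, and Insr, Pik3r1 and Tbc1d4 had log2 ratios from 0.02 to 0.21. Slc2a4, the insulin-responsive glucose transporter, had 10 and 14 UMIs.

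Of 14 secreted factors, 4 were higher, against 7.62% of all genes, and 1 lower, a share near the 9.3% of all genes. Vegfa, the endothelial growth factor, was at 179 and 430 CPM, on 66 UMIs in 41 nuclei and 130 UMIs in 43 nuclei, a log2 ratio of 1.27 (0.83 to 1.72), and it was at 1.54 in fibroadipogenic nuclei and 0.23 in macrophage nuclei. Angptl4, an inhibitor of lipoprotein lipase, had 15 and 36 UMIs and a log2 ratio of 1.54 (0.65 to 2.53). Agt, angiotensinogen, had 8 and 19 UMIs. Fgf1, a growth factor of fat tissue remodelling, was lower with 25 and 5 UMIs. Adipoq, used for the selection, had a log2 ratio of -0.92 (-1.54 to -0.33), Cfd, which encodes adipsin, -0.62, and Retn 0.70, with Retn called at 1.20 without the 4 deepest nuclei. In nuclei with at most 1 UMI each of the fibroadipogenic and endothelial gate genes, Agt and Fgf1 were at 1.62 and -2.77 and not called. Under that limit 4200 genes had enough UMIs to be tested, against 5947 in the main analysis. A gene could thus lose its call through fewer UMIs, as where its ratio stayed over 2-fold.

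**Figure D5:**
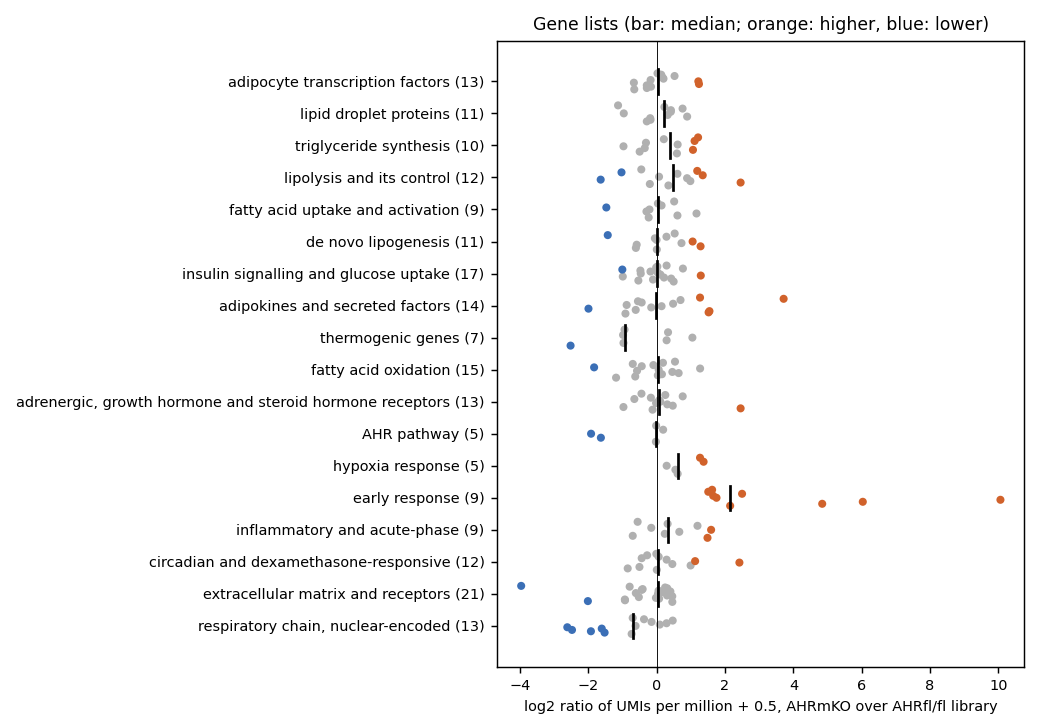
Log2 ratios of the AHRmKO over the AHRfl/fl library in adipocyte nuclei for the tested genes of 18 lists (number tested in brackets), with 1 point per gene, the list median as a bar, and called genes in orange (higher) or blue (lower). The early response genes are all to the right of 0, and the respiratory chain genes have a median of -0.70.

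Early response genes, which stress and growth signals switch on within minutes, were higher in the AHRmKO library. All 9 of 9 tested were higher, against 7.62% of all genes, with a median log2 ratio of 2.15, and Fosb, Fos and Egr1 were among the 10 genes of highest ratio. Fos was at 8.12 and 562.9 CPM, on 3 UMIs in 2 nuclei and 170 UMIs in 32 nuclei, a log2 ratio of 6.03 (4.54 to 8.41). Fosb had no UMI in the AHRfl/fl adipocyte nuclei and 161 in 23 AHRmKO nuclei, and the exact interval of its log2 ratio began at 5.72. Egr1 had 4 and 98 UMIs in 4 and 24 nuclei, a log2 ratio of 4.84 (3.504 to 6.81). These 3 transcripts were thus spread over many AHRmKO nuclei and were nearly absent from the AHRfl/fl ones. Barcodes of 200 to under 500 UMIs, taken as free RNA, held 33.6 and 158 CPM of Fos, 6.45 and 66.1 of Fosb, and 59.9 and 97.7 of Egr1. Free RNA of that profile was estimated at 10.7% and 8.47% of the UMIs of the adipocyte nuclei. With the profile of barcodes of at most 100 UMIs, the estimates were further apart, at 18.1% and 5.51%. After thinning to 2000 UMIs, Fos was in 1.37% (0.0347 to 7.40%) and 48.2% (34.7 to 62.0%) of adipocyte nuclei, against 5.2% and 49.9% of fibroadipogenic ones. Jun, Jund, Junb, Dusp1, Klf6 and Zfp36 had log2 ratios from 1.51 to 2.50. The same list had median log2 ratios of 2.21 in fibroadipogenic, 1.49 in macrophage and 0.65 in endothelial nuclei. Its median was thus above 0 in the other kinds of nuclei as well, though short of 2-fold in endothelial ones. In adipocyte nuclei with at most 1 UMI each of the fibroadipogenic and endothelial gate genes, Klf6, Junb, Zfp36 and Jund were at 0.61, 0.79, 0.99 and 2.14 and not called, and Fos, Fosb, Egr1, Jun and Dusp1 were called. Jund stayed over 2-fold under that limit, which leaves fewer UMIs. The median mitochondrial share of the adipocyte nuclei also differed between the libraries, at 0.738% and 2.10%, and its part in the early response result was not tested. Dusp1, a phosphatase of the MAP kinases, was the only 1 of the 8 tested early response genes with a RefSeq promoter to hold the cyclic AMP response element TGACGTCA. That element was found in 1.77% of all genes with a promoter and in 3.11% of the tested ones. Of the other motifs searched, Jund held the C/EBP motif, Klf6 the AHR response element TNGCGTG and Zfp36 the CArG box CCWWWWWWGG. Dusp1 lies opposite the more abundant gene Ergic1. The Dusp1 match, in capitals, is 143 bases before the start, within chr17:26508588-26508635 (minus strand).
Dusp1: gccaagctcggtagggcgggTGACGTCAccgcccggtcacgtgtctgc

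Several of the other genes of highest ratio came mostly from 1 nucleus. All 83 UMIs of Cyp2e1, an oxidase of liver and fat, were in 1 AHRmKO nucleus of 18441 UMIs, against none in the AHRfl/fl nuclei, so that the interval of its log2 ratio began at 4.75 and no UMI was left without the 4 deepest nuclei, and all 56 AHRmKO UMIs of Gm33103 were in the nucleus of 32000 UMIs. Tnfaip6, a hyaluronan-binding protein, had 2 and 161 UMIs, 130 of them in 1 nucleus of 10458 UMIs. Its log2 ratio of 6.50 was 2.52, and not called, in nuclei with at most 1 UMI each of the fibroadipogenic and endothelial gate genes, and fibroadipogenic nuclei held 96.3 and 455 CPM of it. Rnd3, a small GTPase, had 9 and 61 UMIs, 41 in 1 nucleus, and its log2 ratio was 0.94 without the 4 deepest nuclei, against 3.03 with them. Adamts1, a metalloproteinase, was spread more widely, with 11 and 88 UMIs in 7 and 14 nuclei and a log2 ratio of 3.27, and 3.34 without them. After thinning to 2000 UMIs, Adamts1 was in 9.59% (3.94 to 18.8%) and 16.1% (7.62 to 28.3%) of adipocyte nuclei, at a log2 ratio of 1.79. Endothelial nuclei were at 118 and 490 CPM of it, a log2 ratio of 2.05. Zfp263 had 3 and 30 UMIs, in 3 and 23 nuclei, and was not called under that limit on fibroadipogenic and endothelial genes. Its log2 ratio was still at least 2.99 under each of the 25 alternatives, against 3.53 in the main analysis.

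Of 13 nuclear-encoded respiratory chain genes, 5 were lower, against 9.3% of all genes, and none higher, with a median log2 ratio of -0.70. Cox4i1 had 165 and 43.0 CPM, Ndufa4 at 83.9 and 13.2, and Atp5b at 249 and 86.1. The list's median was -1.56 in fibroadipogenic, -1.57 in macrophage and -1.53 in endothelial nuclei. When the profile of barcodes of 200 to under 500 UMIs, taken as free RNA, was subtracted, the list's median was 0.04, Cox4i1 was at -0.39, Ndufa4 at -0.89 and Atp5b at -0.66, and none of these was called, while Cox5a was at -1.90 and called. Sdha (-0.15) and Sdhb (0.47) were not called.

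Of 21 matrix genes, 2 were lower, a share near the 9.3% of all genes, and none higher. Spp1, osteopontin, was at 784.8 and 49.7 CPM, on 290 UMIs in 66 nuclei and 15 in 10, and 112 of the 290 were in 1 nucleus. Its log2 ratio of -3.97 (-4.84 to -3.24) lay beside -3.73 in fibroadipogenic and -2.31 in macrophage nuclei, and the free RNA profile held 4432 and 480 CPM of it. Over the alternatives the Spp1 ratio ran from -5.58, with free RNA of at most 100 UMIs subtracted, to -3.36 after thinning to 2000 UMIs. Col1a1 was lower with 55 and 11 UMIs. The fibrillar collagen genes Col1a2, Col3a1 and Col5a2 were at -0.93, -0.93 and -0.52 and Sparc at -0.79, none of them called. The basement membrane genes Col4a1, Lama4 and Lamb1 had log2 ratios of 0.07, 0.31 and 0.24.

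All 10 genes of lowest ratio lie opposite a more abundant gene on the other strand, as did 127 of the 553 lower genes and 12 of the 453 higher ones, out of 371 such genes tested. Gm44079, opposite Pparg, had 123 UMIs in 47 AHRfl/fl nuclei and 1 UMI in the AHRmKO library, and Lrrc4, opposite Snd1, had 83 and 1. Angpt2, the angiopoietin gene, opposite Mcph1, had 50 and 1, and its log2 ratio was -3.08 in fibroadipogenic and -0.03 in endothelial nuclei. Whether strand was used in counting is not given in the sources used here, so these values cannot be assigned to the named gene. Among genes not overlapped by such a gene, the lowest were Ifitm3 (36 and 1 UMIs), Actc1 (54 and 2), Gm20528 (177 and 7) and Mylpf (121 and 5). Ifitm3 was also lower in fibroadipogenic (-2.59), endothelial (-3.53) and macrophage nuclei (-4.46), and its free RNA levels were 648 and 38.4 CPM. Gm20528 was at -2.75 in fibroadipogenic and -4.03 in macrophage nuclei. Actc1 and Mylpf are muscle genes, and their free RNA levels were 1699 and 89.8 CPM and 2625 and 134 CPM. Med16, a Mediator subunit, had 38 and 3 UMIs and a log2 ratio of -3.31, against -0.14 in fibroadipogenic and 0.22 in macrophage nuclei. Only overlapping genes were looked for, and Med16 (chr10:79894708-79908923) lies just past the end of Cfd (chr10:79890853-79892655), on the other strand. Whether reads from Cfd entered the Med16 count was not tested.

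Ahr itself and its best known target Cyp1a1 gave few or no UMIs, and Arnt, the receptor's partner, was at 179 and 175 CPM with a log2 ratio of -0.03 (-0.58 to 0.52). Ahr had 8 UMIs in 5 AHRfl/fl nuclei and 0 in the AHRmKO nuclei, a count under the minimum for a call, with an interval of the log2 ratio that reached up to -0.48, and fibroadipogenic nuclei were at 16.1 and 24.1 CPM. Counts from the 3' end do not check a deletion made elsewhere in the gene. Of the targets, Cyp1a1, Ahrr and Aldh3a1 were at 0 in both libraries, Tiparp was at 154 and 152 CPM, and Cyp1b1 was lower, with 27 UMIs in 17 nuclei and 7 in 7, a log2 ratio of -1.64 (-3.10 to -0.42). Cyp1b1 was at -0.52 in fibroadipogenic and -2.01 in macrophage nuclei, and at -0.53, not called, in adipocyte nuclei that held at most 1 UMI each of the fibroadipogenic and endothelial gate genes. Hsp90ab1, a chaperone of the receptor, was lower at -1.92 and was at -0.37 after free RNA was subtracted. Of the 5 pathway genes tested, 2 were lower, against 9.3% of all genes, and none higher.

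The counts in the other lists stand beside 7.62% of all genes higher and 9.3% lower. Fatty acid oxidation had 1 of 15 lower (Etfdh, -1.83) and none higher. Of 13 hormone receptors, Adrb3 alone was higher. Ghr had a log2 ratio of 0.31 (0.25 to 0.36), which was 0.014 with each nucleus weighted the same, and 1 AHRmKO nucleus held 1198 of its UMIs. Tshr was at -0.45 and Thrb at 0.25. Of 5 hypoxia genes tested, Vegfa and Ldha were higher, with Ldha at 114 and 295 CPM and a log2 ratio of 1.37, which was 0.96 and not called in nuclei with at most 1 UMI each of the fibroadipogenic and endothelial gate genes. Of 9 inflammatory genes, Ccl7 and Irf1 were higher on 6 and 14 and 8 and 20 UMIs. Ccl7 was at -0.19 without the 4 deepest nuclei, and neither was called under the limit on fibroadipogenic and endothelial genes. Of 12 circadian and glucocorticoid-responsive genes, Per1 (1.12) and Nr1d2 (2.42) were higher, and Per1 was at 0.69, short of 2-fold, under a mitochondrial limit of 2%. Nr1d2, the clock repressor REV-ERBβ, had 9 and 40 UMIs in 9 and 21 nuclei, and 0.61 as its log2 ratio in fibroadipogenic nuclei. Of 7 thermogenic genes, Esrrg was lower on 29 and 4 UMIs.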

How the data were processed

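The authors deposited whole-number UMI count matrices of all barcodes (10x Chromium 3' HT v3.1 nuclei), made with Cell Ranger 7.0.1 on mm10 per the submitters' processing notes, whereas the file headers name version 4. Whether introns and strand were used is not given in the sources used here. From those counts, Python 3.11.15 scripts selected barcodes, summed each gene over them and scaled the sums to a total of 1000000 (CPM). Log2 ratios had 0.5 CPM added, with exact conditional binomial 95% intervals. A gene was tested at 20 or more UMIs over both libraries and called at a 2-fold ratio whose interval excluded 0. Fibroadipogenic, endothelial and macrophage nuclei had at least 3 UMIs of their own gate genes. Doublets were scored with Scrublet (scanpy 1.11.5) and not removed. Opposite-strand genes came from GENCODE M21, which matched 99.8% of 32285 genes. The RefSeq promoter table matched 231 of 309 list genes. Genes named are those of the lists, the 10 of highest and of lowest ratio, and the 20 highest over fibroadipogenic nuclei, by fixed size minima. Other alternatives were a TMM factor (0.990, recomputed), thinning and free RNA subtraction. The calling function was tested on simulated counts without differences between nuclei, so that test does not cover genes whose UMIs lie mostly in 1 nucleus. Members and lists were chosen with earlier results of these data known. Each group is 1 library, so no test between conditions was possible. A few genes are not reported here.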

Additional observations from a re-analysis of the deposited data

Results flagged for a closer look

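Barcodes of 500 to under 2000 UMIs that met the other limits for adipocyte nuclei were not used in any comparison. They numbered 2 of 21141 in the AHRfl/fl library (0.00946%, exact 95% binomial interval 0.00115 to 0.0342%) and 6 of 3356 in the AHRmKO library (0.179%, 0.0656 to 0.389%), so the AHRmKO value lay above that of the floxed library.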

How the results depend on the processing

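The number of genes called moved by over 1.5 times under 4 of 25 alternatives. With at least 10 marker UMIs, 284 genes were higher and 258 lower. Thinned to 2000 UMIs, 251 were higher, 239 lower and 194 above fibroadipogenic nuclei. With no UMI minimum per gene, 868 were lower and 470 above fibroadipogenic nuclei. With the free RNA profile of 200 to under 500 UMIs subtracted, 356 were lower. The share difference stayed above 0 under all 15 alternatives of the membership, from 0.280 to 0.415 points. Of 62 called genes followed, 57 kept their direction under each alternative run for them, 58 were called under 20 or more and 12 under all 25. The 12 called genes that lie opposite another gene had 24 alternatives. The 5 that did not keep it were Cyp2e1 (0 without the 4 deepest nuclei), Elovl6 (-2.60 with 10 marker UMIs and -0.058 with at most 1 UMI of the fibroadipogenic and endothelial gate genes), Gm33103 (-3.36 with that limit and -2.68 without the deepest nucleus or without the 4 deepest), Ccl7 (-0.19 without the 4 deepest) and Cox6c (0.30 with free RNA subtracted). The cause was not tested, except that Gm33103 and Cyp2e1 each rest on 1 AHRmKO nucleus. No paired analysis was possible because each group is 1 library. Leaving out the nucleus of most UMIs, the 4 deepest nuclei, shared barcodes or opposite-strand genes was chosen after seeing the data. Depth limits the calls: 1 UMI was worth 2.71 and 3.31 CPM, and genes under 20 UMIs were not tested.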
